A study of Drosophila melanogaster with 9 samples.

Results

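Transcripts of Drosophila melanogaster heads were compared between arrays of the same time of day that did and did not carry transcripts of the male reproductive tract. The data come from 9 Affymetrix arrays of head RNA of a strain that the labels call 5073, taken at 6 zeitgeber times (ZT, hours after lights-on). The comparison uses the 5 arrays at the times that have more than 1 array. Its Acp98AB-high set holds 3 arrays, namely ZT3 replicates 2 and 3 and ZT15 replicate 1, and its Acp98AB-low set holds 2 arrays, ZT3 replicate 1 and ZT15 replicate 2. All 9 arrays carry the same labels apart from time: they give no sex, age, genotype, light schedule or number of flies pooled, and do not say whether replicates came from separate collections. The sides were set by the level of Acp98AB, above or below 8 on a log2 scale. Every gene of this contrast is therefore given as a description, without a p-value.

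Acp98AB belongs to the accessory gland proteins, which the paired glands of the male reproductive tract secrete into the seminal fluid and which act on the mated female. The ejaculatory duct and bulb add further proteins, among them those of the mating plug. Spermatids in the testis make proteins of the sperm tail and of sperm chromatin, many of them named Mst, a name that some accessory gland genes carry too. None of these organs lies in the head. The antennae, in contrast, are head appendages whose olfactory hairs contain odorant receptors and large amounts of odorant-binding proteins.

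Acp98AB had a level of 12.32 and 12.53 in the Acp98AB-high ZT3 arrays and 14.25 in the Acp98AB-high ZT15 array, against 4.25 in the Acp98AB-low ZT3 array and 3.21 in the Acp98AB-low ZT15 array. No array lay near the dividing level of 8. Mst84Dc, a sperm tail protein gene that was not used to divide the arrays, had 10.30 and 10.33 at ZT3 and 11.93 at ZT15 in the Acp98AB-high arrays, against 5.06 at ZT3 and 5.34 at ZT15 in the Acp98AB-low arrays. Mst84Dc was thus high on the same 3 arrays as Acp98AB, whose own order was fixed by the rule that set the sides. Levels below about 5 are close to the background of these arrays and have no reliable order. A fold given for a single gene as "at least" below therefore takes every level under 5 as 5. Counts of probe sets or genes at least 2-fold apart use the levels without this floor.

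The 2 Acp98AB-low arrays had the lowest median levels of the series (6.06 and 6.05, against 6.36 to 6.6 on the 3 Acp98AB-high arrays) and the fewest probe sets at 5 or more (10584 and 10534, against 11239 to 11568). Across probe sets, which share each array's preparation and the joint normalization, the Acp98AB-low arrays correlated with each other at r = 0.992 although one was from ZT3 and the other from ZT15. The Acp98AB-high and Acp98AB-low arrays correlated at 0.958 within ZT3 and at 0.91 within ZT15. ZT3 replicates 2 and 3 correlated at 0.997. Eye transcripts were abundant on both sides: the phototransduction list had median levels of 11.91 to 12.44 on the Acp98AB-high arrays and 11.80 on both Acp98AB-low arrays. Any material that includes heads carries these transcripts, so they cannot tell heads alone from heads with other body parts.

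Differences were taken within each time, Acp98AB-high minus Acp98AB-low, from 2 arrays against 1 at ZT3 and from 1 against 1 at ZT15. Of the 11637 probe sets that reached 5 on at least 2 of the 5 arrays, 1046 (8.99%) were at least 2-fold higher in the Acp98AB-high arrays at both times, with median differences of 2.47 at ZT3 and 4.03 at ZT15. A further 319 (2.74%) were at least 2-fold lower at both times, with medians of -1.50 and -1.80. With levels below 5 set to 5, these counts were 702 higher and 268 lower. Another 349 (3.0%) were at least 2-fold higher at ZT15 and less than 2-fold apart at ZT3, and 102 (0.877%) were higher at ZT3 alone. Lower at ZT15 alone were 528 (4.54%), and lower at ZT3 alone 86 (0.739%). Only 20 probe sets were past 2-fold in opposite directions: 19 (0.163%) higher at ZT15 and lower at ZT3, and 1 (0.00859%) the other way round. Across probe sets the differences at the 2 times, which share no array, correlated at r = 0.886. The balance of the 2 directions depended on scaling: 76.6% of the probe sets past 2-fold at both times were higher, against 50.6% with each array centred on its median (873 higher and 854 lower), 62.7% with quantile normalization (900 and 535) and 63.1% on the log2 of the deposited values (1256 and 736). Centring made every difference lower, by shifts of -0.30 at ZT3 and -0.55 at ZT15.

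**Figure D1:**
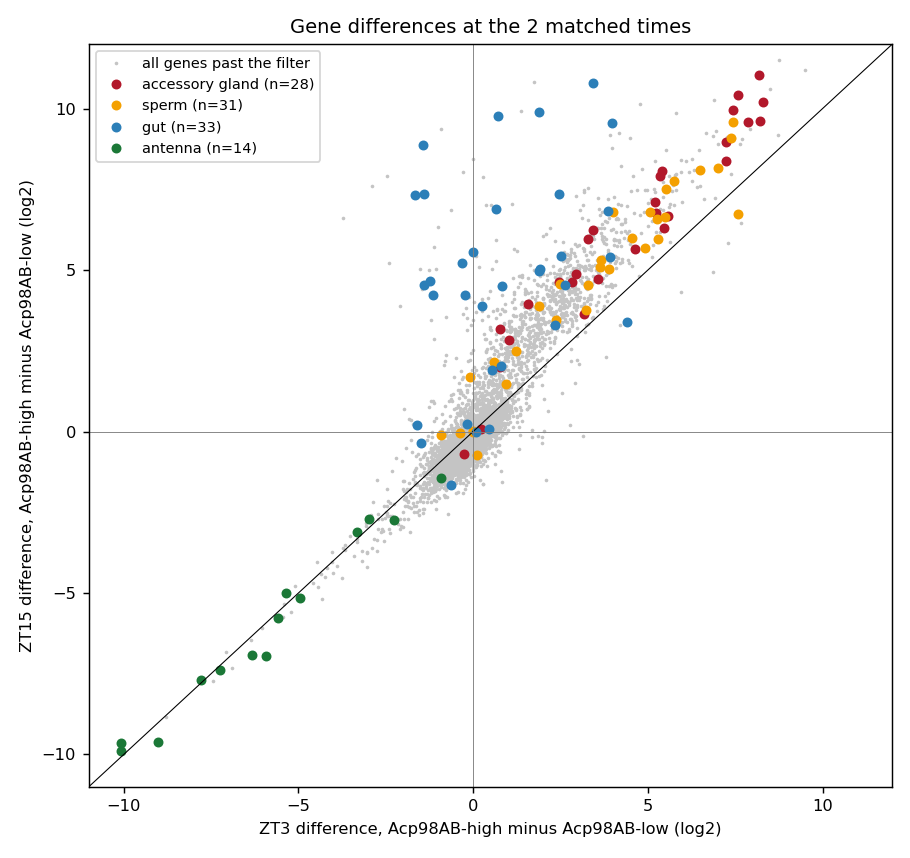
Difference between Acp98AB-high and Acp98AB-low arrays at ZT3 (x axis, log2) and at ZT15 (y axis, log2), 1 point per gene. Grey points are genes past the filter, coloured points are all measured members of 4 lists, and the diagonal marks equal differences. Accessory gland and sperm genes lie high at both times, antennal genes low at both times close to the diagonal, and many gut genes high at ZT15 alone.

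The seminal fluid genes of the accessory gland were far higher in the Acp98AB-high arrays. Of 28 measured members, 24 were at least 2-fold higher at both times and none was lower, where 8.63% of all 11982 named genes were higher at both times and 2.67% lower, counted without the filter on low levels. The sides were chosen by a gene of this list, so its count is not independent of them. The list's median difference was 4.93 at ZT3 and 6.27 at ZT15, against -0.08 and -0.23 over all named genes. A total of 26 members passed the filter, 22 were below 5 on both Acp98AB-low arrays, and 26 had higher levels on all 3 Acp98AB-high arrays than on both Acp98AB-low arrays. In bulk samples of this kind, fewer cells of a type and less RNA per cell cannot be told apart.

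SP encodes the sex peptide, which makes mated females reject further males and lay eggs. It had levels of 10.66 and 10.67 at ZT3 and 12.67 at ZT15 in the Acp98AB-high arrays, against 2.45 at ZT3 and 3.05 at ZT15 in the Acp98AB-low arrays. The groups were far apart, at least 50.7-fold at ZT3 and at least 204-fold at ZT15. Acp36DE, needed for sperm storage in the female, had 10.92 and 10.67 at ZT3 and 12.81 at ZT15 in the Acp98AB-high arrays, against 2.92 and 3.22 in the Acp98AB-low arrays. Acp53C14b, another seminal fluid protein gene, had 11.33 and 11.32 at ZT3 and 13.49 at ZT15 in the Acp98AB-high arrays, against 3.03 and 3.27 in the Acp98AB-low arrays. In each of these genes the ZT15 Acp98AB-high array exceeded both ZT3 ones. The fitted differences with time as a covariate were 8.82 (SE 0.35) for SP, 8.61 (SE 0.43) for Acp36DE and 9.12 (SE 0.47) for Acp53C14b. Because one side lies at background, these sizes rest on unreliable low levels: with levels below 5 set to 5 they were 6.53, 6.66 and 7.25, and such floored values are given beside the fitted ones below where they differ. The 4 members that were not 2-fold higher at both times were antr (0.78 at ZT3 and 2.00 at ZT15), intr (0.76 and 3.17), Sfp65A (0.21 and 0.08, below 5 on all arrays) and Acp95EF (-0.26 and -0.69). Acp95EF stood out among the Acp genes with levels of 7.05, 6.58 and 7.26 on the Acp98AB-high arrays and 7.08 and 7.94 on the Acp98AB-low arrays, so that the groups overlapped.

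Most products of the ejaculatory duct and bulb, the last part of the male tract, were also higher. Of 6 measured members 4 were higher at both times and none lower, beside 8.63% and 2.67% of all named genes. The median difference was 6.97 at ZT3 and 9.10 at ZT15, or 5.41 and 7.99 floored at 5. EbpII, a protein gene of the ejaculatory bulb, had levels of 12.14 and 12.19 at ZT3 and 14.51 at ZT15 in the Acp98AB-high arrays, against 2.66 and 3.32 in the Acp98AB-low arrays, a fitted difference of 10.23 (SE 0.42; 8.17 floored). Ebp, which encodes a mating plug protein, had 12.46, 12.44 and 14.67 in the Acp98AB-high arrays, against 3.70 and 3.16 in the Acp98AB-low arrays (fitted difference 9.93, SE 0.67; 8.40 floored). Both genes lay at 12.14 or more on the Acp98AB-high arrays and below 5 on the Acp98AB-low arrays. Anp, an antibacterial peptide of the ejaculatory duct, differed by 7.0 at ZT3 and 8.89 at ZT15, and Dup99B, a duct peptide related to the sex peptide, by 6.95 and 9.30. The remaining 2 members did not follow. EbpIII was at 15.18 to 15.22 on the Acp98AB-high arrays and at 15.28 and 15.27 on the Acp98AB-low arrays, and Gld, the glucose dehydrogenase gene, differed by -1.21 and -0.37.

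Sperm and spermatid genes were higher as well. Of 31 measured members of the sperm list 23 were at least 2-fold higher at both times and none was lower. Among all named genes, 8.63% were higher and 2.67% lower at both times. The list's median difference was 3.66 at ZT3 and 5.09 at ZT15. ocn, a testis gene, had levels of 10.63 and 10.72 at ZT3 and 12.40 at ZT15 in the Acp98AB-high arrays, against 3.25 and 2.81 in the Acp98AB-low arrays (fitted difference 8.35, SE 0.53; 6.42 floored). S-Lap7, an aminopeptidase of sperm, differed by 7.37 at ZT3 and 9.08 at ZT15. The sperm tail genes Mst84Db and Mst98Ca differed by 7.02 and 7.58 at ZT3 and by 8.16 and 6.73 at ZT15. The Y-linked dynein genes kl-2, kl-3 and kl-5 were below 5 on every array, and Tektin-C, named for a protein of cilia and flagella, differed by -0.08 at ZT3 and 1.69 at ZT15.

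Genes of other steps of sperm formation differed less. The comet and cup genes, transcribed late in elongating spermatids, had 6 of 12 measured members higher at both times, beside 8.63% of all named genes. Their median was 1.08 at ZT3 and 1.97 at ZT15, or 0.51 and 1.71 floored at 5. schuy differed by 3.40 at ZT3 and 3.51 at ZT15, and boly by 2.88 and 3.95. The testis paralogs of proteasome subunits had 5 of 13 higher at both times, beside 8.63% of all named genes. At ZT15, 12 of 13 were higher, beside 14.1% of all named genes. Their medians were 0.62 at ZT3 and 1.53 at ZT15. Only 5 of the 13 passed the filter and 12 were below 5 on both Acp98AB-low arrays. The ZT3 median was 0.00 floored at 5, 0.25 with quantile normalization and 0.31 with the arrays centred, and the ZT15 median 0.87, 1.20 and 0.98. Prosbeta5R1, the paralog of a catalytic subunit, had 5.21, 5.20 and 7.24 in the Acp98AB-high arrays, against 2.90 and 3.73 in the Acp98AB-low arrays. The regulators of spermatocyte transcription, which switch on the testis genes earlier, had none of 13 members past 2-fold at both times, and 10 of the 13 were below 5 on all arrays. Their medians were -0.01 at ZT3 and 0.39 at ZT15, and -0.32 and -0.16 with the arrays centred. mia, a member above 5 on every array, had 5.94 to 6.01 on the Acp98AB-high arrays and 6.37 and 6.18 on the Acp98AB-low arrays.

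**Figure D2:**
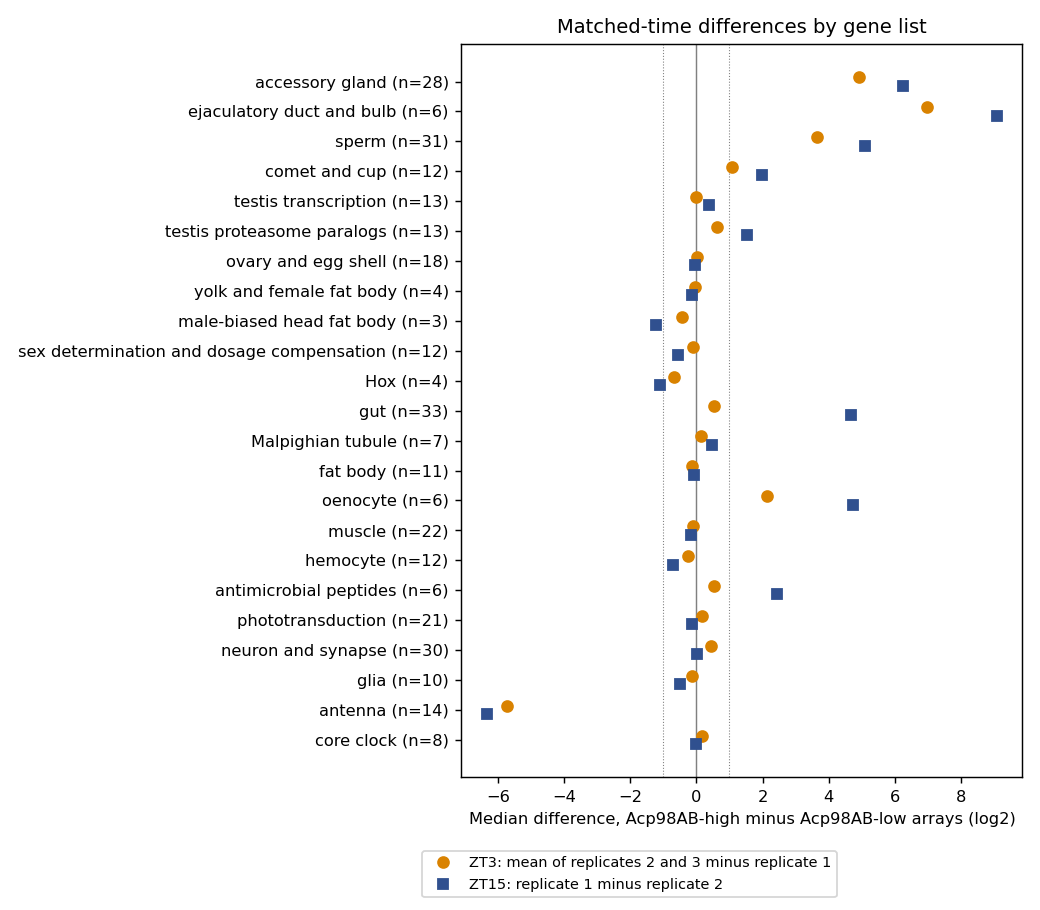
Median difference over all measured members of each gene list, Acp98AB-high minus Acp98AB-low arrays on the log2 scale (x axis), with circles for ZT3 and squares for ZT15. Dotted lines mark 2-fold, and n is the number of measured members. The accessory gland, ejaculatory duct and sperm lists lie to the right at both times, the antenna list to the left (-5.75 and -6.35), and the gut list to the right at ZT15 (4.67) more than at ZT3 (0.53).

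The other direction was led by genes of the antenna. Of 14 measured members of the antenna list, 13 were at least 2-fold lower in the Acp98AB-high arrays at both times, beside 2.67% of all named genes, and none was higher. A total of 13 members passed the filter. All 14 were below both Acp98AB-low arrays on each of the 3 Acp98AB-high arrays. The median difference was -5.75 at ZT3 and -6.35 at ZT15. The odorant-binding protein gene Obp83b had levels of 4.04 and 3.92 at ZT3 and 4.28 at ZT15 in the Acp98AB-high arrays, against 14.05 and 14.16 in the Acp98AB-low arrays. It was abundant on the Acp98AB-low arrays and at background on the others, at least 529-fold apart at ZT3 and at least 574-fold at ZT15. Os-C, an antennal gene, had 3.32, 4.02 and 4.10 in the Acp98AB-high arrays, against 13.76 and 13.74 in the Acp98AB-low arrays. Orco, the co-receptor that most odorant receptors need, had 4.63, 5.22 and 5.25 in the Acp98AB-high arrays, against 10.28 and 10.23 in the Acp98AB-low arrays. lush, which encodes the binding protein for a male pheromone, differed by -6.32 at ZT3 and -6.92 at ZT15. The fitted difference was -9.99 (SE 0.12; -9.10 floored) for Obp83b, -9.90 (SE 0.27; -8.75 floored) for Os-C, -9.28 (SE 0.29; -7.50 floored) for Obp19a and -7.75 (SE 0.12; -5.35 floored) for Obp84a. The exception to the count, the odorant receptor gene Or43b, differed by -0.91 and -1.44.

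Whole families of chemosensory genes, chosen after these values were seen, were mostly near background. Of 56 odorant receptor genes measured, 10 passed the filter and 41 were below 5 on all 9 arrays. At both times 20 were at least 2-fold lower in the Acp98AB-high arrays and none higher, beside 2.67% and 8.63% of all named genes. Of the 20, 7 were below 5 on all 9 arrays, where levels have no reliable order. Or59b had 3.57, 3.20 and 3.32 in the Acp98AB-high arrays, against 7.14 and 7.84 in the Acp98AB-low arrays, and Or42b differed by -4.24 and -4.49. Receptors of the maxillary palp, the second olfactory organ of the fly, were among the 20: Or71a differed by -1.80 and -1.77, and Or42a by -2.09 and -2.70. Of 53 ionotropic receptor genes, 44 of them below 5 on all arrays, 4 were lower at both times, including the co-receptor genes Ir25a (-2.38 and -2.62), Ir76b (-2.46 and -2.51) and Ir8a (-1.29 and -1.57). Of 56 gustatory receptor genes, 51 of them below 5 on all arrays, 4 were lower, among them Gr63a, part of the antennal carbon dioxide receptor (-2.90 and -3.62), the sugar receptor gene Gr64f (-2.33 and -2.61) and the bitter receptor gene Gr66a (-1.89 and -1.79). No member of these 3 families was higher at both times.

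Of the 47 measured genes of the odorant-binding protein family, 9 were at least 2-fold lower and 4 higher at both times, beside 2.67% and 8.63% of all named genes. The 4 higher ones were Obp51a (5.31 at ZT3 and 8.02 at ZT15), Obp22a (3.30 and 5.02), Obp56i (2.16 and 3.07) and Obp56f (1.17 and 2.73), of which Obp51a and Obp22a are known as seminal fluid proteins. Obp51a had 8.65, 8.62 and 11.33 in the Acp98AB-high arrays, against 3.33 and 3.31 in the Acp98AB-low arrays.

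**Figure D3:**
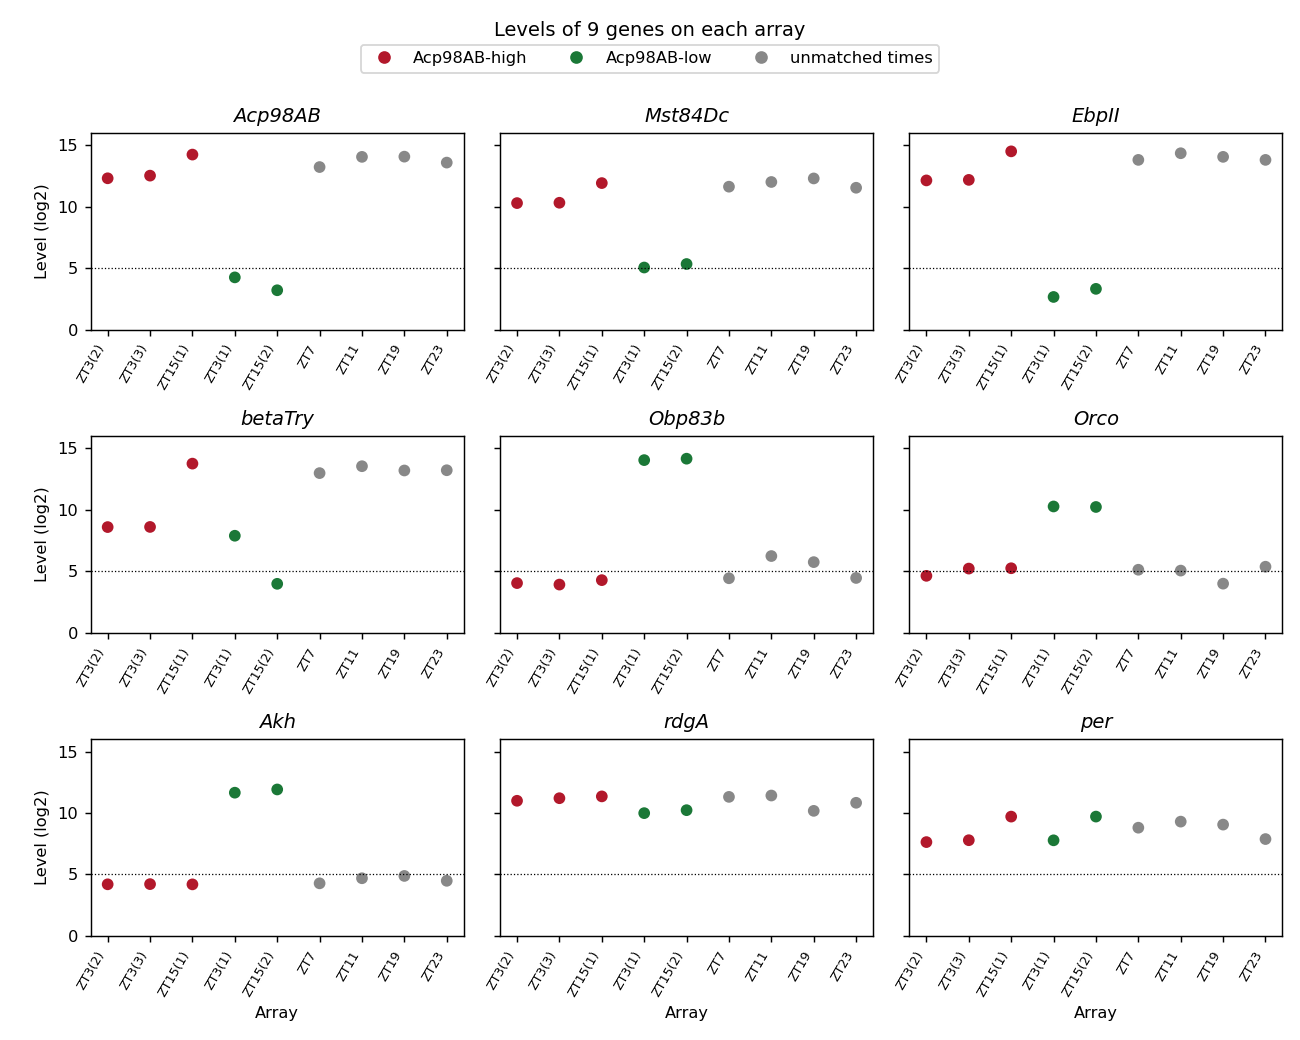
Level of 9 genes (y axis, log2) on each array (x axis; ZT3(2) is ZT3 replicate 2), with Acp98AB-high arrays in red, Acp98AB-low arrays in green and the 4 arrays at unmatched times in grey; the dotted line marks a level of 5. Acp98AB, Mst84Dc and EbpII are low on the 2 green arrays, Obp83b, Orco and Akh are high on them, and per follows time of day on both sides.

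Genes of other known sites were lower too. Akh, which encodes the adipokinetic hormone of the corpora cardiaca, the endocrine gland behind the brain, had 4.19, 4.21 and 4.19 in the Acp98AB-high arrays, against 11.65 and 11.91 in the Acp98AB-low arrays. That is at least 100.3-fold at ZT3 and at least 120.4-fold at ZT15. Genes of the adjoining corpora allata, picked after their values were seen, went the same way: jhamt, an enzyme of juvenile hormone synthesis, had 5.59, 5.81 and 4.62 in the Acp98AB-high arrays, against 10.01 and 9.81 in the Acp98AB-low arrays, and the cytochrome P450 gene Cyp6g2 had 3.67, 3.61 and 3.60, against 7.98 and 8.03. The other genes among the 10 with the largest lower values were a5, a10 and OS9, known from antennae, GstE4, a glutathione S-transferase gene, and Jhedup, a relative of the juvenile hormone esterase gene. Their fitted differences were -8.82 (SE 0.10; -7.01 floored) for a5, -7.30 (SE 0.20) for a10, -6.40 (SE 0.13) for OS9, -7.09 (SE 0.18; -6.32 floored) for GstE4 and -6.97 (SE 0.12) for Jhedup. Among the 10 with the largest higher values, those not yet named were CG31740 (8.93, SE 0.15; 6.48 floored), the male accessory gland gene Mst57Da (9.40, SE 0.52; 8.03 floored), the alkaline phosphatase gene Alp2 (8.55, SE 0.36; 6.90 floored) and lncRNA:CR9284 (8.27, SE 0.35; 6.41 floored).

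Gut genes differed more at ZT15 than at ZT3 between the matched arrays. Of 33 measured digestive enzyme genes, 27 were at least 2-fold higher in the Acp98AB-high array at ZT15, where 14.1% of all named genes were, and 1 was lower there, beside 7.44% of all named genes. However, 12 were higher and 8 lower at ZT3, where 9.2% of all named genes were higher and 4.06% lower. The median difference was 0.53 at ZT3 and 4.67 at ZT15. The trypsin gene betaTry had 8.60 and 8.61 at ZT3 and 13.76 at ZT15 in the Acp98AB-high arrays, against 7.89 at ZT3 and 3.98 at ZT15 in the Acp98AB-low arrays. Both Acp98AB-high ZT3 arrays were thus close to their Acp98AB-low partner, while the ZT15 arrays were the highest and the lowest of the 5. Members differed in this. The maltases Mal-A2 (3.92 at ZT3 and 5.41 at ZT15) and Mal-A4 (3.85 and 6.83) and the serine proteases Jon65Aiii (3.97 and 9.56) and Jon65Aiv (3.44 and 10.81) were higher at both times. Jon99Ci (-1.44 and 8.86), Jon99Fi (-1.67 and 7.32) and Jon25Biii (-1.41 and 7.34) were lower at ZT3 and higher at ZT15. The 5 genes with the largest ZT15 difference among those within 2-fold at ZT3 were betaTry (9.78), CG12374 (9.35), CG18180 (8.44), CG18404 (8.04) and Bace (7.88), an aspartyl protease gene. Only 1 array stands on each side at ZT15. The gut medians were 5.24 and 5.51 at ZT3 and 9.41 at ZT15 on the Acp98AB-high arrays, against 5.21 at ZT3 and 4.16 at ZT15 on the Acp98AB-low arrays, and 8.22, 8.98, 8.76 and 8.64 at the unmatched ZT7, ZT11, ZT19 and ZT23. The 2 Acp98AB-high ZT3 arrays were thus the low ones among the arrays with male transcripts. With the mean of ZT23 and ZT7 in their place the ZT3 median difference was 3.66, and the 349 probe sets higher at ZT15 alone became 124.

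Enzymes of oenocytes, abdominal cells that make the cuticular hydrocarbons, were mostly higher. Cyp4g1, which carries out the last step of hydrocarbon synthesis, had 14.09, 13.94 and 15.08 in the Acp98AB-high arrays, against 9.32 and 7.60 in the Acp98AB-low arrays, so that it was detected on both sides. FASN3, a fatty acid synthase gene, differed by 3.40 at ZT3 and 6.30 at ZT15, and Fad2, a desaturase gene of female hydrocarbons, by 2.90 and 5.45. Of the 6 members 4 were higher and 1 lower at both times, beside 8.63% and 2.67% of all named genes. The lower one was Antdh, named as an antennal dehydrogenase, at 9.87, 9.63 and 9.37 in the Acp98AB-high arrays, against 12.58 and 12.68 in the Acp98AB-low arrays. On both Acp98AB-low arrays 4 of the 6 members were below 5. The list's medians were 2.15 at ZT3 and 4.73 at ZT15, or 0.998 and 3.02 floored at 5. With the mean of ZT11 and ZT19 in place of ZT15 replicate 1, the ZT15 median was 1.94.

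Antimicrobial peptide genes are induced in fat body and epithelia during infection. Of 6 members 3 were higher at both times, beside 8.63% of all named genes, and 1 of 6 with the arrays centred on their medians. Drs differed by 2.24 at ZT3 and 3.08 at ZT15, Mtk by 1.24 and 2.44 and DptB by 1.17 and 2.44. At ZT3, 1 of the 6 was at least 2-fold lower, at -1.97. The list's medians were 0.52 at ZT3 and 2.44 at ZT15. Malpighian tubule genes had none of 7 past 2-fold at both times, with medians of 0.13 and 0.48 that turned to -0.17 and -0.07 when arrays were centred. ZnT35C, a zinc transporter gene, differed by 0.83 at ZT3 and 2.41 at ZT15 and Oatp58Da, an anion transporter gene, by 0.78 and 1.76. NaPi-T went the other way, by -0.73 and -1.07, but did not pass the filter (0.00 and -0.47 floored at 5). At ZT15, 2 of the 7 were at least 2-fold higher and 1 lower.

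Markers of the ovary were mostly at background on both sides. Of 18 ovary and egg shell genes none was past 2-fold at both times, and 14 were below 5 on all arrays. grk, an oocyte signal gene and one of the few above 5, had 8.54, 8.69 and 8.35 in the Acp98AB-high arrays, against 8.99 and 9.19 in the Acp98AB-low arrays. The yolk protein genes, which female fat body makes, were high throughout: Yp1 had 15.85, 15.82 and 15.76 in the Acp98AB-high arrays, against 15.91 and 15.83 in the Acp98AB-low arrays. fit, a female-biased gene of head fat body, differed by -0.23 and -0.70. Of 3 genes known as male-biased in head fat body, 1 was lower at both times and none higher. Across all named genes, 2.67% were lower and 8.63% higher at both times. Cyp4d21 had 11.66, 11.66 and 11.98 in the Acp98AB-high arrays, against 12.79 and 13.19 in the Acp98AB-low arrays. sxe2 differed by -0.43 and -1.37, and Obp99b by -0.37 and -0.66. Of the 12 sex determination and dosage compensation genes, 1 was lower at both times, msl-3 (-1.06 and -1.22, and not past 2-fold at both times with quantile normalization), and the list's medians were -0.11 and -0.57. fru, which directs male courtship circuits, differed by 1.22 and 0.71, and dsx by -0.54 and -0.95.

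Of 8 Hox genes listed, 4 were measured, and these act in the head or thorax. Scr, which marks the labial and first thoracic segments, had 6.45, 6.52 and 5.58 in the Acp98AB-high arrays, against 8.03 and 8.15 in the Acp98AB-low arrays. pb, which acts in the mouthparts, differed by -0.95 and -1.53, or -0.45 and -0.70 floored at 5. Dfd, which acts in the head, differed by -0.38 and -0.67 and Antp, which acts in the thorax, by -0.21 and -0.37. Antp was at 6.14 on ZT3 replicate 3 and at 6.15 on ZT3 replicate 1. It was at 6.69 at the unmatched ZT23, above both Acp98AB-low arrays. The other Hox genes listed, lab, Ubx, abd-A and Abd-B, were not among the measured genes.

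Fat body, muscle and blood cell lists had 1 or 2 members each past 2-fold at both times, all of them lower. Across all named genes, 8.63% were higher and 2.67% lower at both times. Among 11 fat body genes 1 was lower at both times: Lsp2, a storage protein gene, had 10.69, 10.46 and 11.48 in the Acp98AB-high arrays, against 13.30 and 14.49 in the Acp98AB-low arrays. The fat body medians were -0.14 at ZT3 and -0.08 at ZT15. Among 22 muscle genes 2 were lower at both times, the flight muscle genes Act88F (-2.09 and -3.0) and fln (-1.56 and -2.42), and the medians were -0.11 and -0.18. With the mean of ZT11 and ZT19 in place of ZT15 replicate 1, the fitted difference of fln turned to 0.28, against -1.93, and that of Act88F was -0.67, against -2.48; Act88F was at 12.82 at ZT11. up, the troponin T gene, differed by 1.33 and 0.77. Among 12 hemocyte genes 1 was lower, PPO1, a prophenoloxidase gene (-1.26 and -1.63), and the medians were -0.26 and -0.70.

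Most genes of the eye and brain were less than 2-fold apart at 1 time or both. In the phototransduction list 1 of 21 members was past 2-fold at both times, rdgA, the diacylglycerol kinase gene, with 10.99, 11.20 and 11.35 in the Acp98AB-high arrays, against 9.98 and 10.23 in the Acp98AB-low arrays. The list's medians were 0.15 at ZT3 and -0.13 at ZT15, and -0.15 and -0.68 with the arrays centred, where no member was higher and 1 was lower at both times. ninaB, which cleaves the carotenoid precursor of the chromophore, differed by -0.74 and -0.95. Among 30 neuron and synapse genes 4 were higher at both times, beside 8.63% of all named genes, and none was lower. The 4 were the potassium channel gene Sh (1.36 and 1.48), the sodium channel gene para (1.22 and 1.64), the GABA receptor gene Rdl (1.52 and 1.16) and nAChRalpha5 (1.06 and 1.21). At ZT15, 4 members were at least 2-fold higher and 2 lower, the lowest at -1.61, where 14.1% and 7.44% of all named genes were. None of the 30 was past 2-fold at both times with the arrays centred, and the medians of 0.43 and 0.02 became 0.12 and -0.53. Among 10 glial genes none was past 2-fold at both times; Nrx-IV differed by -0.32 and -0.80 and alrm by -0.26 and -0.68.

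The core clock genes were within 2-fold between the array sets at 1 time or both. per, a repressor gene of the clock, had 7.63 and 7.78 at ZT3 and 9.70 at ZT15 in the Acp98AB-high arrays, against 7.77 at ZT3 and 9.70 at ZT15 in the Acp98AB-low arrays. The fitted difference between the array sets was -0.04 (SE 0.11) for per, 0.10 (SE 0.12) for tim, 0.18 (SE 0.11) for Clk, 0.03 (SE 0.13) for cry, -0.25 (SE 0.13) for cyc and -0.37 (SE 0.11) for vri. The per levels thus overlapped between the sets at ZT3 and were equal at ZT15, while the times differed. cwo, a target and repressor of the clock, was the furthest apart of the 8, with 11.03 and 11.11 at ZT3 and 12 at ZT15 in the Acp98AB-high arrays, against 9.57 at ZT3 and 11.11 at ZT15 in the Acp98AB-low arrays (fitted difference 1.24, SE 0.18). Pdp1 differed by 0.65 (SE 0.18). None of the 8 was past 2-fold at both times. The list's medians were 0.16 and -0.00, and -0.15 and -0.56 with the arrays centred.

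**Figure D4:**
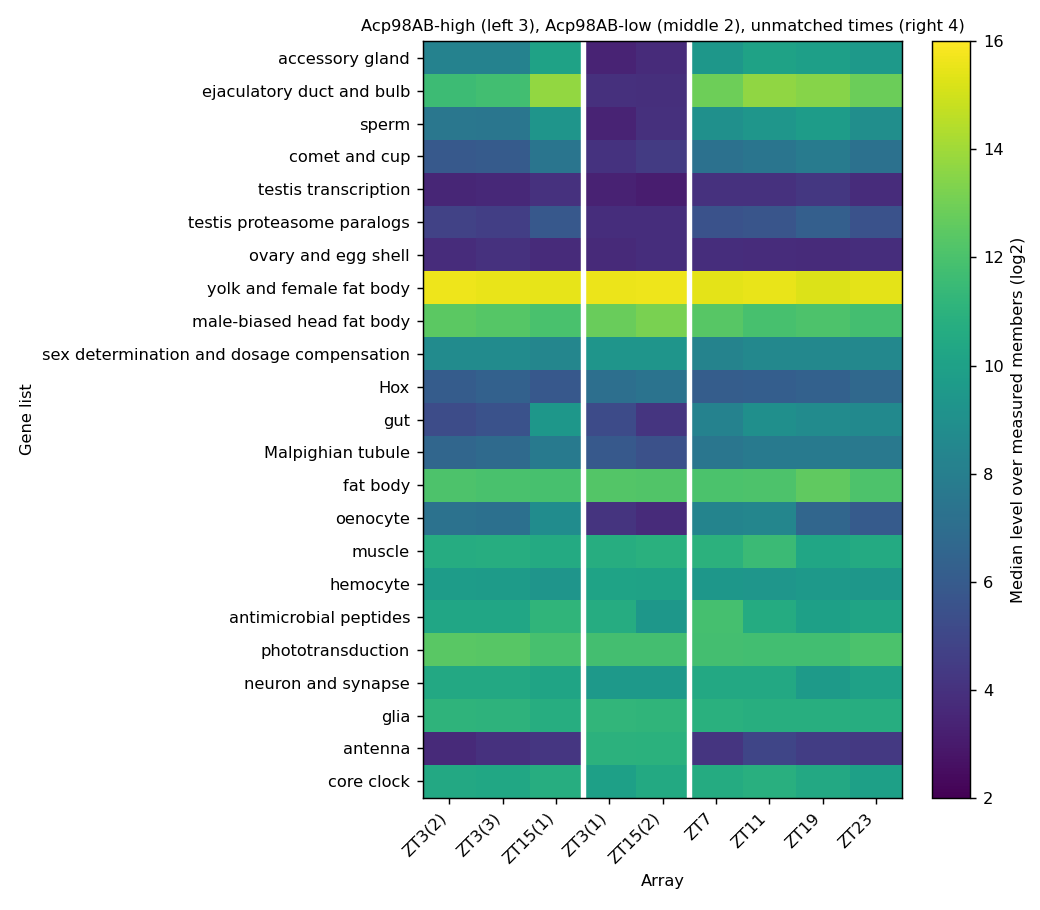
Median level (colour, log2) over the measured members of each gene list (rows) on each array (columns; white lines part the 3 Acp98AB-high, the 2 Acp98AB-low and the 4 unmatched arrays). The accessory gland, ejaculatory duct and sperm lists are dark and the antenna list bright on the 2 Acp98AB-low arrays, and the reverse holds on the Acp98AB-high and unmatched arrays.

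The 4 arrays at ZT7, ZT11, ZT19 and ZT23 have no partner at their time and were not used to divide the arrays. Accessory gland medians were 9.39, 10.05, 9.91 and 9.56 there, and antenna medians 4.19, 4.91, 4.52 and 4.35. Obp83b was at 6.24 at ZT11 and 5.75 at ZT19, and at 4.43 and 4.46 at ZT7 and ZT23. Most male tract genes had a larger difference at ZT15 than at ZT3, namely 26 of 28 in the accessory gland list and 28 of 31 in the sperm list, with Mst98Ca (7.58 at ZT3 and 6.73 at ZT15) among the exceptions. This was not particular to male tract genes. Of all 1046 probe sets at least 2-fold higher at both times, 976 had the larger difference at ZT15. In the accessory gland list the Acp98AB-high medians were 8.18 and 8.23 at ZT3 and 10.07 at ZT15, against 3.40 at ZT3 and 3.72 at ZT15 on the Acp98AB-low arrays, both below the background level of 5.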

How the data were processed

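The deposited table holds 1 GCRMA score per probe set and array, per the submitters' processing notes, which give neither version nor settings. The authors' values reach 8120023, beyond the range of linear scanner intensities. Their natural log rose with log2 concentration of the added control transcripts with a slope of 1.05 ± 0.0666 (SD over 9 arrays), and their log2 with a slope of 1.52. The natural log was therefore taken as the log2 level. If log2 of the deposited values were true, folds would be raised to the power 1.44. Arrays give no depth, and their small number limits precision.

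Of 18952 probe sets 183 controls were left out. The platform annotation, updated through Entrez identifiers with a RefSeq gene table, named 1 gene for 13647 of the remaining 18769 (13544 matched by identifier), several for 402 and none for 4720, 11982 genes in all. The probe set of highest mean stood for a gene. No coordinates or sequences are given, because no build is named and none was supplied.

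A filter of 5 on at least 2 of the 5 arrays applied to probe set counts, while list counts and medians cover all measured members. Fitted differences and standard errors come from limma 3.58.1 (R 4.3.3), level on array set and time, with 2 residual degrees of freedom; the fit was tested on simulated data. No p-value is given, since the array sets were divided by a measured value. The members and the 23 lists were chosen with earlier results of these data known; 15 further lists (families by symbol, chordotonal genes, and genes of the corpora cardiaca and allata) were added after the values were seen.

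Genes were named by rule: the 10 with the largest lesser difference of the 2 times in each direction, up to 4 per list by the same measure, the markers, all core clock and Hox genes, and the 5 with the largest ZT15 difference within 2-fold at ZT3. Other list members are named where they are exceptions to a count or were chosen after their values were seen. Alternatives were other scales, normalizations, filters, thresholds, arrays left out and neighbouring times in place of the matched arrays.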

Additional observations from a re-analysis of the deposited data

Results flagged for a closer look

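Some lists and genes had differences (Acp98AB-high minus Acp98AB-low, log2) of opposite sign at the 2 times in every array; these contrasts between times were not tested. The spermatocyte transcription list had a median of -0.015 at ZT3 and 0.39 at ZT15, the phototransduction list 0.15 and -0.13, and the core clock list 0.16 and -0.0044. Among the core clock genes tim had 0.18 and -0.0071, and cry 0.16 and -0.14. All of these values are below 2-fold. CG12374 (-0.92 at ZT3 and 9.35 at ZT15) and CG18404 (-0.30 and 8.04), named for their ZT15 difference, were of another size.

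In the 4 arrays at unmatched times, the medians of several lists lay at least 2-fold above those of both Acp98AB-low arrays, with no floor at 5. For the testis proteasome paralogs, at 3.81 on both Acp98AB-low arrays, that fold rests on levels below 5. The lowest list median among the 4 was 9.39 for accessory gland, 12.87 for ejaculatory duct and bulb, 8.91 for sperm, 7.21 for comet and cup, 5.50 for testis proteasome paralogs, 8.22 for gut, 7.51 for Malpighian tubule and 6.02 for oenocyte genes. The Malpighian tubule medians there were the levels of ZnT35C alone. That list's median difference at ZT3 was 0.18 with the mean of ZT23 and ZT7 in place of replicates 2 and 3. At ZT15 it was 0.12 with the mean of ZT11 and ZT19 in place of replicate 1.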

How the results depend on the processing

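Of the 1046 probe sets higher at both times, 432 were left with a filter at 7 and 644 at 4-fold. The count lower at both times, 319, was 736 on the log2 of the deposited values, 854 with arrays centred on their medians, 535 with quantile normalization, 206 with a filter at 7, 93 at 4-fold and 479 with the mean of ZT23 and ZT7 in place of ZT3 replicates 2 and 3. The count higher at ZT15 alone, 349, was 642 with values below 5 set to 5, 715 with no filter, 88 with a filter at 7 and 124 with ZT23 and ZT7. The count higher at ZT3 alone, 102, was 279 on log2, 55 with a filter at 7 and 12 at 4-fold. Leaving out ZT3 replicate 2 or 3 gave 1047 or 1039 higher and 344 or 307 lower at both times. The counts higher at 1 time were then 352 or 359 at ZT15 alone and 147 or 121 at ZT3 alone. Without ZT3 replicate 1 only the ZT15 difference was left, with 1414 higher and 848 lower. Without either ZT15 array only the ZT3 difference was left, with 1149 higher and 424 lower.

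Accessory gland medians at ZT3 and ZT15 were 7.11 and 9.04 on log2, 4.62 and 5.71 centred, and 3.19 and 5.03 with values below 5 set to 5; at ZT3 they were 4.73 with quantile normalization and 5.76 with ZT23 and ZT7. Sperm medians were 5.27 and 7.35 on log2, 3.35 and 4.54 centred, and 2.53 and 4.29 floored at 5, with 5.10 at ZT3 from ZT23 and ZT7 and 5.41 at ZT15 from the mean of ZT11 and ZT19. Antenna medians were -8.29 and -9.16 on log2, -6.05 and -6.90 centred, -5.47 and -5.55 floored, -6.40 from ZT23 and ZT7 and -6.54 from ZT11 and ZT19. Gut medians were 0.77 and 6.74 on log2, 0.23 and 4.11 centred, 0.12 and 4.24 floored, 0.15 at ZT3 with quantile normalization, 3.66 from ZT23 and ZT7, 4.30 from ZT11 and ZT19, and 0.49 to 0.72 at ZT3 with 1 array left out.

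Fitted differences of at least 2-fold that changed sign were fln (0.28 with ZT11 and ZT19 in place of ZT15 replicate 1) and, with 1 array left out, CG12374 (-0.92 to 9.35), CG18180 (-0.017 to 8.44) and CG18404 (-0.30 to 8.04), whose lowest values came without either ZT15 array and highest without ZT3 replicate 1; the cause for fln was not tested. Those of cry, tim, per, Clk, vri, bcd, Cp19 and FASN1, all less than 2-fold, also changed sign under at least 1 alternative. With the replicate number as a replicate block, 1320 probe sets had a fitted difference at least 2-fold higher and 470 lower, against 1298 and 471 without it. Same-numbered arrays of the 2 times lie on opposite sides, so the numbers were not taken as pairs. Signal near background limits every level under 5.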

Other observations

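Families of detoxifying, cuticle and channel genes were gathered by symbol after the values were seen. Of 83 cytochrome P450 genes 15 were at least 2-fold lower and 2 higher at both times, where 2.67% and 8.63% of all named genes were. Cyp308a1 had 2.93, 3.38 and 3.06 in the Acp98AB-high arrays, against 7.62 and 7.11 in the Acp98AB-low arrays, and Cyp6a17 differed by -3.06 at ZT3 and -2.83 at ZT15. The higher ones were Cyp4g1 and Cyp312a1 (3.16 and 5.66). Of 34 glutathione S-transferase genes 4 were lower and 1, GstE10 (1.74 and 2.05), higher. Of 35 UDP-glycosyltransferase genes none was lower and 1 higher, and of 66 cuticle protein genes 1 was lower and none higher. Of 27 pickpocket channel genes 1 was lower at both times and 24 were below 5 on all arrays; of 12 CheA and CheB genes 1 was lower and 11 were below 5 on all arrays. Of 7 chordotonal genes 1, btv, was lower (-1.73 and -1.02), and it was below 5 on all arrays. The Acp, Mst and Sfp families, which overlap the lists of the report, had 13 of 15, 14 of 17 and 5 of 6 members higher at both times.

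Flight muscle genes set the single ZT11 array apart: Act88F had a level of 12.82 there and fln 11.40, against 6.36 to 6.73 and 4.37 to 5.18 on the Acp98AB-high arrays and 8.64 to 9.36 and 6.37 to 6.79 on the Acp98AB-low arrays. The desaturase gene Fad2 was at 3.20 at ZT19 and 3.02 at ZT23, close to the Acp98AB-low arrays (4.06 and 2.85), although both arrays carried male tract transcripts.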
